A study of Eurytemora affinis with 15 samples.

Results

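A block of 179 genes was examined that stood high in 1 of 3 control pools of the estuarine copepod Eurytemora affinis. The genes were selected on the normalised read counts of the controls alone. A gene was taken when Control 3 was at 30 or more and at least 4 times the higher of Control 1 and Control 2. Of 23728 genes 179 met this, fewer than the limit of 200 that a ranking by Control 3 over the higher of the other pair (plus 1) would have set, so each of them was kept. The high level in Control 3 is therefore what chose the block, and the values that were free to vary are those of the 12 exposed libraries.

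RNA of whole adult males was sequenced after 72 h in water alone (Control) or in sediment elutriate, the water phase left after sediment is mixed with water. Elutriates came from Fatouville and Tancarville in the Seine estuary, each at 350 and 2500 mg/L. Each of the 5 groups had 3 pools of 30 males, which the labels call biological replicates, and each pool gave 1 library. The animals were wild-caught and shared the same salinity (15 psu), temperature (15 °C) and algal food before exposure, and no strain or genotype is given.

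E. affinis is a small brackish-water copepod with separate sexes. Adults no longer moult, males hold the mate with a hinged antennule, and females carry their eggs in a sac. A library of whole animals mixes the RNA of all tissues of all animals in the pool, so fewer cells of a type and less RNA per cell cannot be told apart. The deposited table names genes by identifier only, and no table of names, positions or sequences was used here. The members are therefore described by identifier, level and pattern. The product-name lists could not be applied, and the labelled sex and tissue could not be checked against markers.

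The 15 libraries held from 13.6 to 17.2 M reads in genes. The p-values measure the spread between pools of wild-caught animals. Replicate 3 of the controls, replicate 2 of Fatouville at 350 mg/L and replicate 3 of Tancarville at 2500 mg/L stood apart from their groups in the block itself. Over all genes these 3 lay 67.6, 73.8 and 80.0 from their group means on log2(value + 1), where the other 12 libraries lay at 45.6 to 72.3. Comparisons that rest on the latter pair are given with and without them.

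The values that chose the block were these. Control 3 ranged from 30.3 to 32081 normalised counts over the 179 genes, with a median of 203, against medians of 5.63 in Control 1 and 5.74 in Control 2. The first gene of the ranking, LOC111705506, had 32081 in Control 3 and 0 reads in Control 1 and in Control 2. The second, LOC111694749, had 30152 and again 0 and 0. In all 16 members had 0 reads in both of those controls. The last in the ranking were LOC111695162, at 46.0, 39.2 and 186 in Control 1, 2 and 3, and LOC111710962, at 9.39, 1.91 and 38.8. These are also the pair just inside the limit on the ratio, at 4.05 and 4.13. Just outside it lay LOC111713294, with 18.8, 0 and 73.8 and a ratio of 3.93, and LOC111696055, with 23.5, 25.8 and 100.3 and a ratio of 3.89. At the limit on the level, LOC111718174 and LOC111695970 were inside with 30.3 and 31.2 in Control 3, and LOC111717911 and LOC111711964 were outside with 29.3 each. With the stricter limit of 8 times, 137 of the 179 genes would have been kept.

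The same genes were high in some exposed pools and low in others, and the division did not follow the groups except at Fatouville 2500 mg/L. The median normalised count of the 179 genes was 166, 367 and 287 in the 3 libraries of Fatouville 2500 mg/L. At Tancarville 2500 mg/L it was 4.48, 7.003 and 99.6 in replicates 1, 2 and 3. For the lower concentration it was 4.99, 36.7 and 4.82 at Fatouville and 4.83, 9.19 and 4.92 at Tancarville. All pools of Fatouville 2500 mg/L were thus near or above Control 3. Below them came 1 pool of Tancarville 2500 mg/L, and Fatouville 350 mg/L replicate 2 was lower again. Tancarville 350 mg/L replicate 2, at 9.19, was somewhat above Control 1 and 2, and the other exposed pools lay near those controls. The median over all 23728 genes stayed between 90.7 and 106 in each library.

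**Figure D1:**
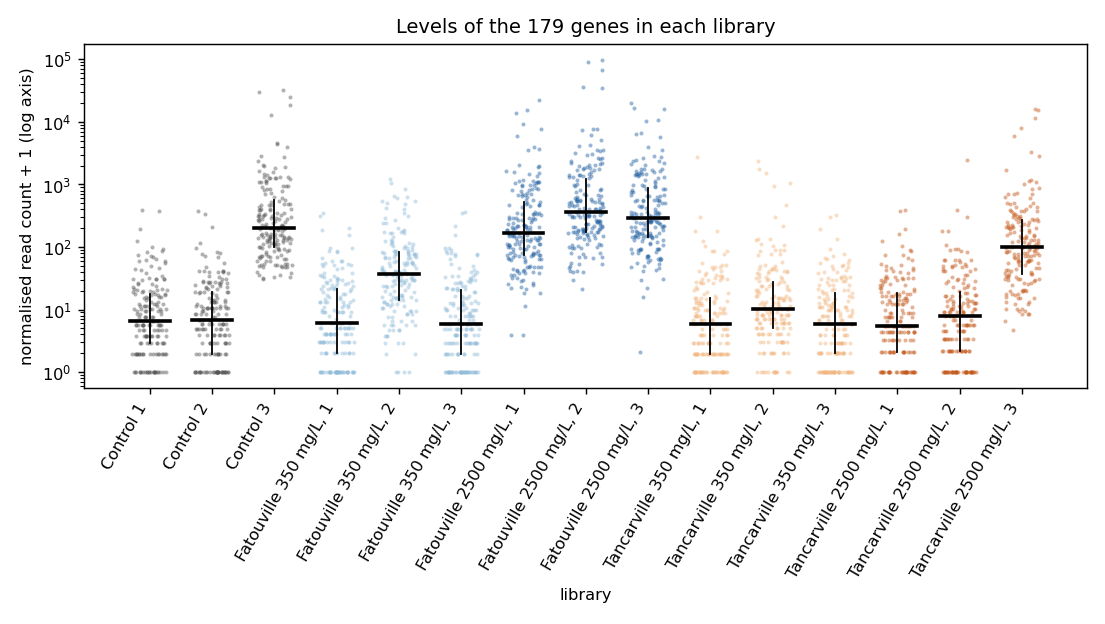
Normalised read count plus 1 (log axis) of the 179 genes in each of the 15 libraries. Each point is a gene, the thick bar is the median and the thin line spans the quartiles; Control 3, the 3 Fatouville 2500 mg/L pools and Tancarville 2500 mg/L replicate 3 have medians of 99.6 to 367, and the others 4.48 to 36.7.

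Expressed as a share of each library's reads, the block took 1.35% of Control 3 and 0.0211% and 0.0202% of Control 1 and 2. It took 0.960%, 3.21% and 1.30% of the Fatouville 2500 mg/L libraries, and was thus largest in replicate 2. The Tancarville 2500 mg/L libraries gave 0.0207%, 0.0378% and 0.592%. At 350 mg/L the shares were 0.0224%, 0.118% and 0.0219% for Fatouville and 0.0348%, 0.0740% and 0.0193% for Tancarville.

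Most members followed this order of pools one by one. All 3 Fatouville 2500 mg/L libraries were above each of the other 9 exposed libraries for 153 of the 179 genes. No share over all genes was computed for that count. Against a single group, which is less strict, Fatouville 2500 mg/L lay wholly above Fatouville 350 mg/L for 12.1% of the 18799 genes tested below. It lay wholly above Tancarville 2500 mg/L for 12% of them. Tancarville 2500 mg/L replicate 3 was above both other pools of its group for 174 genes, and above all 8 remaining exposed libraries for 165. Fatouville 350 mg/L replicate 2 was the highest of its group for 151 genes, and Tancarville 350 mg/L replicate 2 for 96. The highest of the 12 exposed libraries was Fatouville 2500 mg/L replicate 2 for 125 genes, replicate 3 for 46, replicate 1 for 4, and Tancarville 2500 mg/L replicate 3 for the other 4. For the counts of single pools in this paragraph no share over all genes was computed either.

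**Figure D2:**
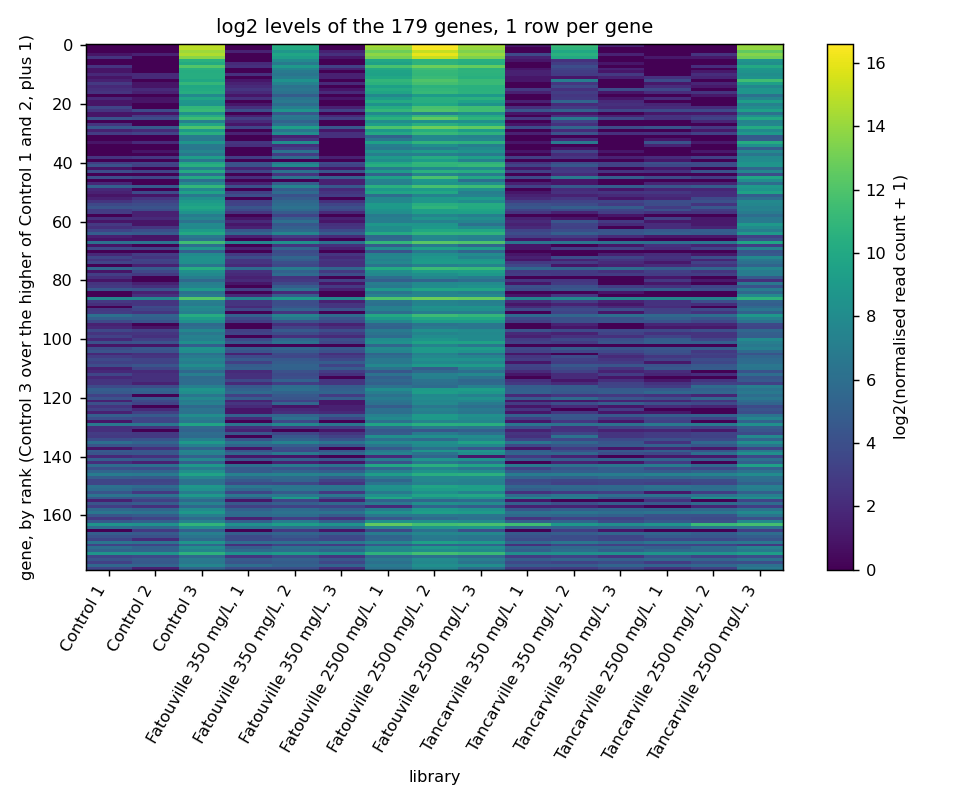
Colour gives log2(normalised read count + 1) for the 179 genes (rows, in the order of the ranking) in the 15 libraries (columns). The columns of Control 3, Fatouville 2500 mg/L and Tancarville 2500 mg/L replicate 3 are bright over nearly all rows, and Tancarville 350 mg/L replicate 2 is bright in the first 5 rows.

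Members also kept their order of abundance between the pools in which they were high. Over the 179 genes, the log2 levels in Control 3 correlated with those in the Fatouville 2500 mg/L libraries at r = 0.94, 0.95 and 0.94. The correlation was 0.87 with Tancarville 2500 mg/L replicate 3, 0.83 with Fatouville 350 mg/L replicate 2 and 0.63 with Tancarville 350 mg/L replicate 2, and 0.12 to 0.19 with the other 8 exposed or control libraries. These are descriptions over genes, which are not independent, and the controls are the libraries that chose the members. Between exposed libraries, r was 0.93 to 0.94 among the Fatouville 2500 mg/L pools. It was 0.85 to 0.93 between those and Tancarville 2500 mg/L replicate 3. No such correlation was computed over all genes. Relative to Control 3, a member's level had a median ratio of 0.706 (quartiles 0.572 to 0.910) in Fatouville 2500 mg/L replicate 1. In replicates 2 and 3 it was 1.75 (1.51 to 2.06) and 1.42 (1.13 to 1.73). Tancarville 2500 mg/L replicate 3 had a median ratio of 0.343 (0.252 to 0.541), Fatouville 350 mg/L replicate 2 of 0.130 (0.0767 to 0.217) and Tancarville 350 mg/L replicate 2 of 0.0457 (0.0142 to 0.108). In each pool of Fatouville 2500 mg/L the upper quartile was thus less than 2 times the lower.

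**Figure D3:**
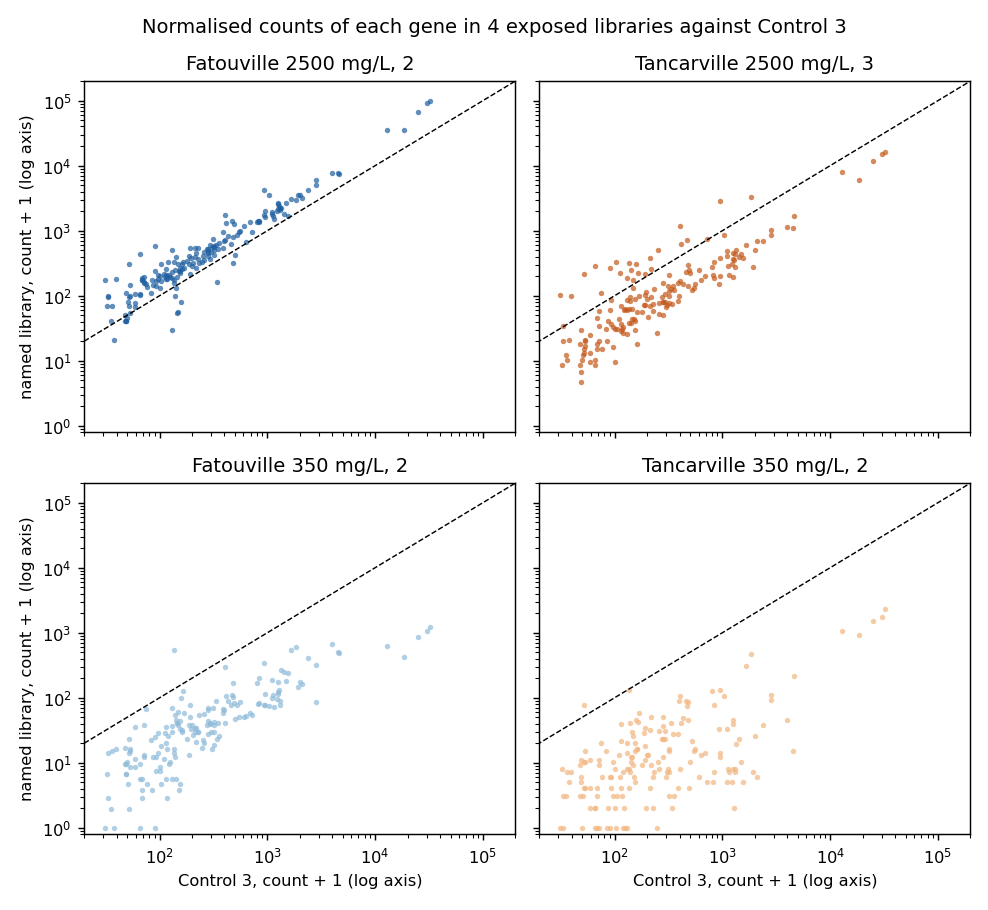
Normalised read count plus 1 of each of the 179 genes in 4 exposed libraries against Control 3, both axes logarithmic, with equality as a dashed line. Median ratios to Control 3 are 1.75 for Fatouville 2500 mg/L replicate 2, 0.343 for Tancarville 2500 mg/L replicate 3, 0.130 for Fatouville 350 mg/L replicate 2 and 0.0457 for Tancarville 350 mg/L replicate 2, where the 5 most abundant genes lie well above the rest.

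Across the 12 exposed libraries, which had no part in the choice, the genes varied together. The correlation of log2 levels between 2 members had a median of 0.90 over 15931 pairs (quartiles 0.84 to 0.94, lowest 0.18), and 67 pairs were below 0.5. A member's correlation with the median of all the others had a median of 0.95 and was below 0.8 for 9 genes. As description these numbers carry no test, since the 12 points share 4 groups and the same few high pools.

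Among the members, 5 were far more abundant than the rest, each above 10000 in Control 3. They were singled out after their values were seen and also lead the ranking: LOC111705506, LOC111694749, LOC111706580, LOC111700136 and LOC111700137. LOC111705506 had 22055, 99253 and 19941 normalised counts in the Fatouville 2500 mg/L libraries, and 0, 0 and 15991 at Tancarville 2500 mg/L. It had 0, 1238 and 0 at Fatouville 350 mg/L, and 0.966, 2333 and 1.97 at Tancarville 350 mg/L. The gene was therefore at 0 to 2 in 8 of the 15 libraries and above 1000 in the other 7, with pools of 1 group on both sides in every group but Fatouville 2500 mg/L. LOC111694749 behaved alike, with 15769, 90485 and 16057 at Fatouville 2500 mg/L and 0, 0 and 15317 at Tancarville 2500 mg/L. At 350 mg/L it had 0, 1068 and 0 for Fatouville and 0, 1754 and 0 for Tancarville.

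Together the 5 genes gave 58.2% of the block's reads in Control 3, 48.0%, 68.1% and 38.4% at Fatouville 2500 mg/L, and 59.6% in Tancarville 2500 mg/L replicate 3. They gave 64.1% in Tancarville 350 mg/L replicate 2 but 25.004% in Fatouville 350 mg/L replicate 2. In each of the other 8 libraries the 5 genes had between 1 and 15 reads in all, at most 0.262% of the reads of the block. As shares of whole libraries, they took 2.18% of Fatouville 2500 mg/L replicate 2 and 0.787% of Control 3.

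The pair of intermediate pools at 350 mg/L differed in which members were raised. Fatouville 350 mg/L replicate 2 was higher than Tancarville 350 mg/L replicate 2 for 146 of the 179 genes, and lower for 31. All of the 5 abundant genes were among the 31. LOC111706580 was at 424 in the Fatouville pool and 934 in the Tancarville pool, and LOC111700136 at 860 and 1503. Without those 5 genes the block took 0.0888% of the reads of Fatouville 350 mg/L replicate 2 and 0.0265% of Tancarville 350 mg/L replicate 2. The latter share was above the 0.0193% to 0.0224% of most of the other 8 libraries with a low block. It was below the 0.0347% of Tancarville 350 mg/L replicate 1 and the 0.0377% of Tancarville 2500 mg/L replicate 2. In both of those LOC111710245 was the highest member, at 2745 and 2442 normalised counts. Over all 179 genes the median of Tancarville 350 mg/L replicate 2 was 9.19, where replicates 1 and 3 of its group had 4.83 and 4.92. The lower quartiles were 4.08, 0.966 and 0.984.

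The criterion used on the controls was then applied to the other pools, each against the other pair of its own group. In Tancarville 2500 mg/L replicate 3 it was met by 105 members, 58.7% of the 179, against 324 of all 23728 genes (1.37%). The 105 made up 32.4% of those 324. Fatouville 350 mg/L replicate 2 met it for 50 members (27.9%), against 302 of all genes (1.27%), and the 50 were 16.6% of that list. Tancarville 350 mg/L replicate 2 met it for 10 members (5.59%), against 71 of all genes (0.299%). In Tancarville 350 mg/L replicate 1, where 261 genes met the criterion, 1 was a member, LOC111710245. No library of Fatouville 2500 mg/L stood far above its group in this way for more than 5 members, and those 5 were raised in replicate 2.

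Those 10 members at Tancarville 350 mg/L replicate 2 were the 5 abundant genes and LOC111701427, LOC111712600, LOC111704362, LOC111695660 and LOC111715309. LOC111701427 had 133 normalised counts there against 0.966 and 0 in the other pools of its group. It had 2885 in Tancarville 2500 mg/L replicate 3 (12.3 and 0 in replicates 1 and 2), 344 in Fatouville 350 mg/L replicate 2 (0.998 and 0), and 1927, 4155 and 2360 at Fatouville 2500 mg/L. In this gene Control 3, at 939, was below each of those 4 pools at 2500 mg/L. Tancarville 2500 mg/L replicate 3 exceeded Control 3 for 25 members in all.

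The concentrations of Fatouville elutriate were compared first among the exposed groups, with the controls left out of the fit. Every tested member had a higher fitted level at 2500 than at 350 mg/L, by 4.69 on the log2 scale in the median (range 1.14 to 11.68), against a median of -0.01 over all 18799 genes tested. By limma 80 of the 177 members tested rose and 0 fell at an adjusted p below 0.05. Over all genes 333 rose (1.77%) and 25 fell, or 241 and 102 after quantile normalisation. All pools at 2500 mg/L were above all pools at 350 mg/L for 173 members, against 12.1% of all genes tested. Of the 177, 74 had passed the filter on low values through the Fatouville 2500 mg/L libraries alone and so had to be higher there. The count and median over the 177 are therefore descriptions. Among the other 103 members 51 rose, against 285 of the 18423 genes that passed in the same way (1.55%). The median difference of the 103 was 3.71, and the groups did not overlap for 99 of them, against 11.4% of those genes. The remaining 2 members, LOC111695055 and LOC111701562, did not pass the filter.

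The smallest adjusted p among members belonged to a pair with a sizeable level in every pool. LOC111698166, named after its values were seen, averaged 159.8 ± 7.53 normalised counts at Fatouville 350 mg/L and 1165 ± 458 at 2500 mg/L (SD, n = 3). Its log2 difference was 2.77 (SE 0.28, limma adjusted p = 0.00117). LOC111705671, likewise chosen after its values were seen, rose from 409 ± 108 to 2367 ± 703 (log2 difference 2.52, SE 0.25, limma adjusted p = 0.00117). The call was lost for both genes in 1 of 22 alternatives, the fit with the controls (limma adjusted p = 0.0655 and 0.0565). The pair with the largest difference among those called was at 0 in all 3 Fatouville 350 mg/L libraries. Both passed the filter through the Fatouville 2500 mg/L libraries alone, so their values are given as a description with no p. LOC111706649 had 281, 579 and 149 at 2500 mg/L, at least 347-fold higher than a floor of 3 reads over the group. LOC111718174 had 42.8, 171 and 93.4, at least 106-fold higher. The call was lost in 14 of 22 alternatives for LOC111706649 and in 12 of 21 for LOC111718174. The 2 most abundant members did not pass. LOC111705506, high in 1 of the 3 pools at 350 mg/L, had a log2 difference of 11.68 with an SE of 4.69 (limma adjusted p = 0.242), and LOC111694749 one of 11.44 with an SE of 4.76 (limma adjusted p = 0.255).

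**Figure D4:**
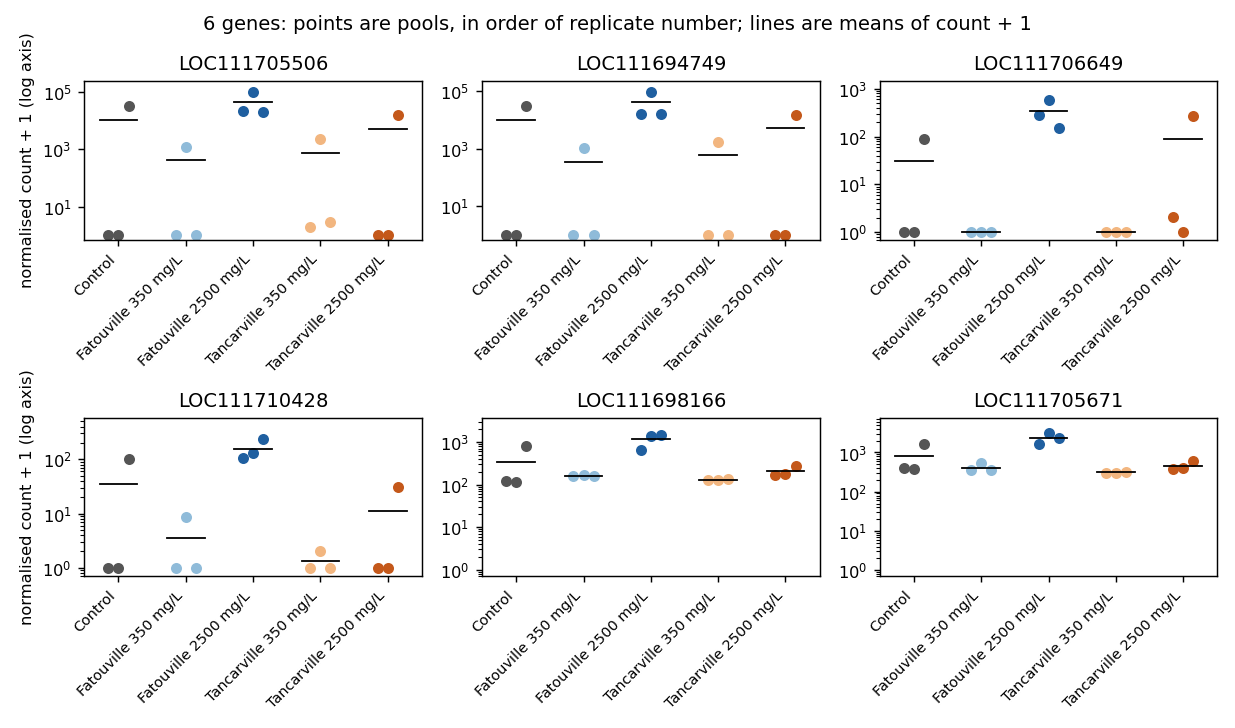
Normalised read count plus 1 (log axis) of 6 members by group. Points are the 3 pools in order of replicate number and lines are group means of the count plus 1; LOC111698166 and LOC111705671 stay above 100 in every pool, while LOC111706649 is at 0 in all pools at 350 mg/L.

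How many members passed depended on single pools. Among the Fatouville pools at 350 mg/L, leaving out replicate 1 gave 29 members (of 90 genes called in either direction) and leaving out replicate 3 gave 31 (of 95). Among those at 2500 mg/L, the count fell to 22 (of 57 genes) when replicate 2 was left out and to 16 (of 38) for replicate 3. It was 130 (of 462 genes) when Tancarville 2500 mg/L replicate 3 was left out. Dropping both exposed pools that stand apart gave 155 of 177 members and 489 genes in all (2.63%), which follows in part from their being the highest of their groups in the block. When the controls were put into the fit, 0 members and 1 gene in all passed. At an unadjusted limma p below 0.05 there were 166 of 179 members and 3755 of 18921 genes. That fit includes the controls on which the members were chosen to differ. The loss covered called genes outside the block as well, and its cause was not tested. By edgeR 86 members rose, of 354 genes called in either direction (1.88%), and by DESeq2 112, of 986 (5.24%).

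The sites at 2500 mg/L were compared next. All 177 members had a higher fitted level at Fatouville, with a median log2 difference of 3.97 (range 0.91 to 10.45) against 0.01 over all genes. Limma called 56 members higher at Fatouville and 0 lower, against 257 of all genes higher (1.37%) and 49 lower, or 219 and 85 after quantile normalisation. The groups did not overlap for 154 members, against 12% of all genes. Of the 56, 20 were among the 74 members that had passed the filter through Fatouville 2500 mg/L alone. The other 36 were among the 103, against 228 of the 18423 genes that passed in the same way (1.24%). The median difference of the 103 was 3.18, and the groups did not overlap for 91 of them, against 11.6% of those genes. Among the 56, 53 were also among the 80 of the comparison of concentrations, which shares the Fatouville 2500 mg/L libraries. LOC111705671 averaged 2367 ± 703 at Fatouville and 458 ± 127 at Tancarville (log2 difference 2.36, SE 0.25, limma adjusted p = 0.00303, lost in 1 of 22 alternatives, at 0.0668).

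The largest called differences between the sites belonged to genes that were nearly absent from 2 Tancarville pools. Both genes named here had passed the filter through the Fatouville 2500 mg/L libraries alone, and their values are again a description with no p. LOC111710428 had 103, 128 and 232 at Fatouville 2500 mg/L and 0, 0 and 30.1 at Tancarville 2500 mg/L, a log2 difference of 5.54 (SE 1.22). LOC111710805 had 126, 236 and 257 against 1.12, 0 and 43.2, a log2 difference of 5.45 (SE 1.17). The call was lost in 14 of 20 alternatives for LOC111710428 and in 16 of 21 for LOC111710805. In both genes Tancarville 2500 mg/L replicate 3 was the only other exposed pool at 10 or more.

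Between the sites the number of called members also turned on single pools. Of the Fatouville 2500 mg/L pools, dropping replicate 2 left 5 members (of 16 genes called in either direction) and dropping replicate 3 left 7 (of 19). Of the Tancarville pools at this concentration, dropping replicate 1 left 4 (of 15 genes), replicate 2 left 9 (of 29) and replicate 3 gave 134 (of 352). It was 37 (of 167) when replicate 3 of Tancarville 350 mg/L was dropped. Without both pools that stand apart 158 members were called, of 618 genes in either direction (3.32%). This again follows in part from Tancarville 2500 mg/L replicate 3 being the highest of its group in the block. By limma with the controls in the fit 0 members and 0 genes passed, with 154 members and 3717 of 18921 genes at an unadjusted p below 0.05. By edgeR 48 members were higher, of 248 genes called in either direction (1.32%), and by DESeq2 50, of 875 (4.65%).

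The Tancarville concentrations were compared in the same way. The median log2 difference of members, 2500 minus 350 mg/L, was 1.05 (range -0.90 to 3.36), with 168 members above 0 and 9 below, and 0.01 over all genes. By edgeR the members' median was 2.35 and by DESeq2 2.36. No gene passed by limma, member or not (0%), and 19 of 177 members had an unadjusted p below 0.05, as did 946 of 18799 genes. By edgeR 0 and by DESeq2 1 member passed. The groups did not overlap, with 2500 mg/L higher, for 30 members, against 6.68% of genes tested. Without the exposed pools that stand apart, of which Tancarville 2500 mg/L replicate 3 is one, the limma median was 0.05, and it was 1.78 and 1.73 without replicates 1 and 2 of that group.

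At 350 mg/L the sites gave a median log2 difference of 0.60 for Fatouville minus Tancarville (range -1.25 to 3.55), with 137 members above 0 and 38 below, and 0.92 by edgeR. No gene of the 18799 passed by limma (0%), 9 members and 749 genes had an unadjusted p below 0.05, and 0 members passed by edgeR or DESeq2. Without the exposed pools that stand apart the median was -0.05.

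**Figure D5:**
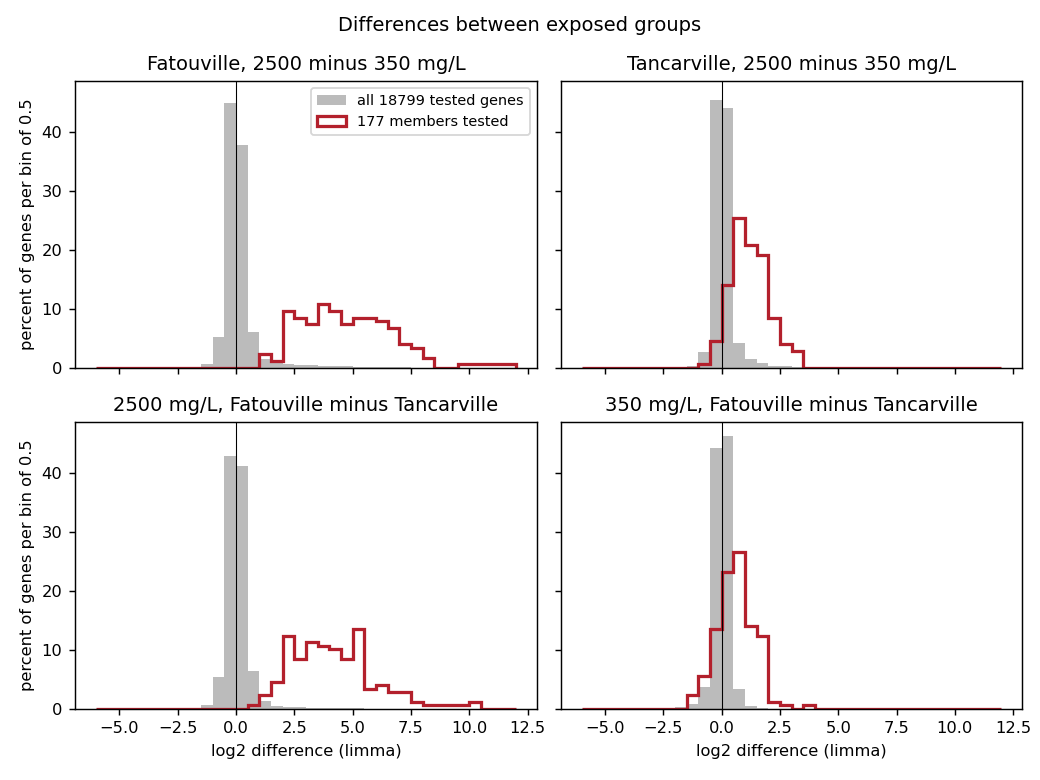
Distribution of limma log2 differences in 4 comparisons of exposed groups, as percent of genes per bin of 0.5, for the 177 members tested (red line) and all 18799 genes tested (grey). Members are centred on 4.69 between the Fatouville concentrations, 3.97 between the sites at 2500 mg/L, 1.05 between the Tancarville concentrations and 0.60 between the sites at 350 mg/L.

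Whether the concentrations differed more at Fatouville than at Tancarville was tested as an interaction. The median interaction of the members was 3.21 on the log2 scale (range -0.90 to 11.60), and 176 of 177 were above 0. The 177 include the 74 members that passed the filter through the Fatouville 2500 mg/L libraries alone, which favours values above 0. No split by the filter was made here, so the median and the counts of members in this paragraph are descriptions. By edgeR the median was 1.77. No gene passed by limma (0%, smallest adjusted p among members 0.175), although 87 members and 1473 of all genes had an unadjusted p below 0.05. By edgeR 0 members passed and by DESeq2 14, all above 0, of 49 genes called (0.261%). Without Fatouville 2500 mg/L replicate 1 limma called 12 members of 75 genes (0.402%), and without Tancarville 2500 mg/L replicate 3 it called 29 of 46 (0.246%), all members among them above 0. Leaving out both pools that stand apart gave 107 members of 151 genes (0.812%). This too follows in part from their being the highest of their groups in the block.

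A few members departed from the common pattern and are named after their values were seen. LOC111710245 had 382, 336 and 1836 in Control 1, 2 and 3, and 5977, 2984 and 3507 at Fatouville 2500 mg/L. It was also at 2745 in Tancarville 350 mg/L replicate 1 and at 2442 and 3246 in Tancarville 2500 mg/L replicates 2 and 3, against 297 to 600.3 in the other exposed pools. LOC111699266 likewise had 179 in Tancarville 350 mg/L replicate 1 and 299 in Tancarville 2500 mg/L replicate 2, and reached 533 in Fatouville 350 mg/L replicate 2, above its 134 in Control 3. LOC111695055, which correlated least with the others (r = 0.59), had 34.1 in Control 3 and 39.2 in Fatouville 2500 mg/L replicate 2 but 2.85 and 1.06 in replicates 1 and 3 of that group. The first pair thus differed from the block in which Tancarville pools were high, and LOC111695055 in being low in 2 of the 3 Fatouville 2500 mg/L pools.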

How the data were processed

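Per the labels' protocols, 200 ng of RNA per pool of 30 males went into an mRNA library kit. The authors deposited a signal per gene and library, normalised read counts, and a score, Cook's distance, per the file headers. HTSeq 0.11.2, STAR, DESeq2 and Salmon are named, with no role, per the submitters' processing notes. Build, annotation and strandedness: not given in the sources used here. Reads of near-identical genes could have gone to either copy. Dividing each value by that of 1 read gave a whole number in 100% of cases (tolerance 1e-06), and these reads entered the count-based alternatives.

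The members, gene lists and tests were chosen with earlier results of these data known. Groups were compared with limma 3.58.1, run in R 4.3.3 on values transformed as log2(value + 1), with an intensity trend and robust moderation, over the 12 exposed libraries and the 18799 genes at 10 or more in at least 3 of them. Calls used a Benjamini-Hochberg adjusted p below 0.05 over these genes, 2-sided. A difference on this scale understates the change of low genes. Comparisons with Control share the values that chose the members and are given as levels without a test. The rule for named genes took, for lack of names, the first and last 2 of the ranking, the genes at the limits, and up to 2 called members per comparison and direction with the largest log2 difference; others are marked. Alternatives used edgeR 4.0.16 (quasi-likelihood, TMM), DESeq2 1.42.0, other pseudocounts (0.5 and 5), filters, scalings, a replicate block and libraries left out. The labels number the pools 1 to 3, and same-number deviations correlated above 0.1 in all 3 cases only between the groups at 350 mg/L (0.10, 0.32 and 0.36), of the 6 pairings of exposed groups. The test was checked on simulated counts with a common dispersion for all genes and no pools set apart. That check does not cover the spread between pools seen in this block. Replicates differed by more than sampling noise (lowest chi-square over its degrees of freedom, 11.8).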

Additional observations from a re-analysis of the deposited data

How the results depend on the processing

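No member was called lower in any comparison under any of the 24 alternatives, and the sign of each named gene's difference was kept in all alternatives that gave one. The number of called members between the Fatouville concentrations (80) was 49 with a mean filter of 50, 53 with the members limited to 8 times, 0 with all 15 libraries in the fit and 155 without the pools that stand apart, and 16 to 130 with 1 library left out. Between the sites at 2500 mg/L (56) it was 36, 34, 0 and 158 in the same settings, and 4 to 134 with 1 library left out. The limit of 8 times kept 137 members and left the calls over all genes as in the main fits, 1.77% and 1.37% higher. Counts for the mean filter and the replicate block stand without a share over all genes. All these counts include members that passed the filter through Fatouville 2500 mg/L alone, and they describe only how far the settings moved the calls. DESeq2 called 1 member between the Tancarville concentrations and 14 for the interaction, which was 107 without the pools that stand apart and 0 to 29 with 1 library left out. The replicate block gave 75 and 48 members for the first and second comparison and 0 for the other 3, as without it, and changed no other count by over 1.5 times. DESeq2 gave no adjusted p for 15 members in the first comparison and 76 in the second. DESeq2 called 986 and 875 of all genes in the first and second comparison where limma called 358 and 306. Quantile normalisation moved the median of all genes between the Fatouville concentrations from -0.01 to -0.10 on the log2 scale, and the members' median from 4.69 to 4.36. The limit of 200 removed no gene. Leaving out the pools that stand apart, which were the highest of their groups in the block, favoured higher counts by construction. The cause of the other shifts was not tested. The precision of the calls is limited by 3 pools a group, and members near 0 rest on few reads.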

Other observations

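Genes outside the block rose with it. Of the 333 genes that limma called higher at Fatouville 2500 than at 350 mg/L, 253 were not members, and Control 3 was above both other controls for 244 of these 253, at least 2 times for 66 (26.1%). Over all 18799 genes tested, Control 3 was above both in 36.1% and at least 2 times in 2.26%. Among the 253, 21 had Control 3 below 30, the limit on the level, and 14 of these met the ratio of 4 times, so that they lie outside the block by level alone. Their log2 differences were smaller, with a median of 0.88 (quartiles 0.66 to 1.44) against 3.80 (2.79 to 4.82) for the 80 members called. Between the sites at 2500 mg/L, 201 of the 257 genes called higher at Fatouville were not members, and Control 3 was the highest control for 197 of them. Of these 201, 11 had Control 3 below 30 and 5 of the 11 met the ratio.

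The deposited Cook's distances, which score how far a library moves a gene's fit, were highest in Control 3 for 135 of the 179 members, as the choice of the members implies. They were highest in Tancarville 2500 mg/L replicate 3 for 39 members, in Fatouville 350 mg/L replicate 2 for 3, and in Tancarville 350 mg/L replicate 1 and Fatouville 2500 mg/L replicate 2 for 1 each. Control 3 had a median distance of 0.563 over the members and 0.0225 over all genes. For Tancarville 2500 mg/L replicate 3 these medians were 0.267 and 0.0251.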
